A study of Homo sapiens with 6 samples.

Results

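The 9p21 segment around CDKN2A was read from ATAC-seq calls of open chromatin in MCF10A, a human breast epithelial line that does not form tumors and is known for having lost CDKN2A. The segment ran from KLHL9 to DMRTA1 in GENCODE release 44 with 500 kb added on either side, which is chr9:20829665-22955740 in hg38 and 2.13 Mb long. Its 7 chosen genes were KLHL9, IFNE, MTAP, CDKN2A, CDKN2B, CDKN2B-AS1 and DMRTA1, among 22 protein-coding genes that start in the segment and 20033 in the genome. Of 49527 regions called open in any library, 10 lay in the segment and 461 on the rest of 9p, taken as the first 38 Mb of chromosome 9.

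Untreated cells (Control) were compared with cells given the Zn2+ chelator tris(2-pyridylmethyl)amine (TPA, 50 μM) or ZnCl2 (30 μM), both for 30 min. Each condition had 2 libraries, and all 6 came from this 1 cell line, so p-values measure the spread between libraries and not between cell lines. ATAC-seq uses a transposase that cuts exposed DNA, and HMMRATAC, a hidden Markov model caller, marks runs of such cuts as open regions. The lists held between 18887 (ZnCl2 replicate 2) and 44641 (Control replicate 2) regions on the assembled chromosomes, and read depth is unknown because the lists carry no read counts. Control replicate 1, with 25031 regions, and ZnCl2 replicate 2 had the shortest lists. Of 8 basal mammary markers, 3 had an open promoter in all 6 libraries and TP63 in none, and of 4 epithelial markers the keratins KRT8 and KRT18 were open in all 6, CDH1 in 3 (both TPA libraries and ZnCl2 replicate 1) and EPCAM in 1 (TPA replicate 2). None of 8 promoters of genes that mark blood, endothelial, liver, muscle or neural cells was called in any library. Over all coding promoters 40.0% were open in all 6 libraries and 38.9% in none, so the basal count is near the share of all promoters. Each marker, TP63 included, was read at its outermost annotated start only, so a gene used from an inner start counts as closed.

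CDKN2A makes 2 unrelated proteins from separate first exons. p16INK4a inhibits the cyclin D kinases CDK4 and CDK6 and so keeps RB1 active, and p14ARF inhibits the ubiquitin ligase MDM2. CDKN2B encodes p15INK4b, a close relative of p16INK4a, and CDKN2B-AS1 (ANRIL) is a long noncoding RNA transcribed away from CDKN2A. MTAP, the next gene towards the telomere, recycles methylthioadenosine from polyamine synthesis and is often deleted together with CDKN2A in tumors. KLHL9 is an adaptor of a CUL3 ubiquitin ligase, DMRTA1 belongs to the DM-domain family of DNA-binding proteins, and IFNE is an interferon of epithelia next to the type I interferon cluster. An open-region call needs mapped fragments, but a missing call does not show that the sequence is missing: loss of DNA and closed chromatin cannot be told apart from these lists.

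The sequences upstream of the starts show which kind of promoter lies in the segment. The bases 250 to 1 upstream of each RefSeq start are given 5′ to 3′ on the strand of the gene (GRCh38.p14), with every CG dinucleotide in capitals. The first 4 had no overlapping call in any library. They are the CDKN2A starts for p14ARF at chr9:21995325-21995574 and for p16INK4a at chr9:21974858-21975107 (minus strand), CDKN2B at chr9:22009306-22009555 (minus strand) and MTAP at chr9:21802386-21802635 (plus strand). The last 2 did have calls, KLHL9 at chr9:21335405-21335654 (minus strand) in 4 libraries and DMRTA1 at chr9:22446574-22446823 (plus strand) in 2.
CDKN2A (p14ARF start): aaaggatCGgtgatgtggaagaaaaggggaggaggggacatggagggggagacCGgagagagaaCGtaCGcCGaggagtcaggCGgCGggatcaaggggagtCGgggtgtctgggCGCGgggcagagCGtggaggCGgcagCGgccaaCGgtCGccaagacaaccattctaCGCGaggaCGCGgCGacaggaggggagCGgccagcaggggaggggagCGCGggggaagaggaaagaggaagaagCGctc
CDKN2A (p16INK4a start): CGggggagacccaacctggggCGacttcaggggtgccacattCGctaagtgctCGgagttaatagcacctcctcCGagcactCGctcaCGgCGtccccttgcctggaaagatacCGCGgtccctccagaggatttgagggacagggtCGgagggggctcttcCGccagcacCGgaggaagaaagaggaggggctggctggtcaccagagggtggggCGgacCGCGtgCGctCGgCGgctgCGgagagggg
CDKN2B: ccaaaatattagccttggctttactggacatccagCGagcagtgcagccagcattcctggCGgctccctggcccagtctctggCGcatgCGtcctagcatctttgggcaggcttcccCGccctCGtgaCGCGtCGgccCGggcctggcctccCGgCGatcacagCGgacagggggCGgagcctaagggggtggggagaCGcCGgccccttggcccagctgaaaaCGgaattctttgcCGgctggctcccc
MTAP: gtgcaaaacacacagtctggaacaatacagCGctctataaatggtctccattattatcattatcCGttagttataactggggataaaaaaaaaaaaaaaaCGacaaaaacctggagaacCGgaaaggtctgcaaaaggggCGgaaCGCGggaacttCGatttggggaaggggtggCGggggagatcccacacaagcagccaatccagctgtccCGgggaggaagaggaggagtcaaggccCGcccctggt
KLHL9: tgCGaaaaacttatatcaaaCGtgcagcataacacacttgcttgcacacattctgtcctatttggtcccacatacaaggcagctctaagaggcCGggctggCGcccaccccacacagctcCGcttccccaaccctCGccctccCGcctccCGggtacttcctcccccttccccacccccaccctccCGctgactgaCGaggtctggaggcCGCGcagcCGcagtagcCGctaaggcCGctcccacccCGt
DMRTA1: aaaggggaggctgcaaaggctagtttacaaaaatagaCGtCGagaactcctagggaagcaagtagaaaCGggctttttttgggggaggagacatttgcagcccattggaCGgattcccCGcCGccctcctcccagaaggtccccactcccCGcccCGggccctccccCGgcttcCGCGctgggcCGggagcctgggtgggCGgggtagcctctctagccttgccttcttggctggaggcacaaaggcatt

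The 2 CDKN2A sequences held 24 and 20 CG dinucleotides and CDKN2B held 18, against 16 in KLHL9, 13 in DMRTA1 and 11 in MTAP. The median over 35116 RefSeq promoters of the same length was 11, so the CDKN2A and CDKN2B starts without a call were CG-rich by this count, 23.7%, 32.4% and 36.8% of all promoters having as many or more. The GC box GGGCGG, searched on both strands, was present in CDKN2B, MTAP, DMRTA1 and at the p16INK4a start and absent from the p14ARF start and KLHL9, while 42.6% of all promoters held it. The windows with and without calls thus overlapped in both features. IFNE, by contrast, had 2 CG dinucleotides and no call.

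Only KLHL9 and DMRTA1 among the 7 genes had a call in the promoter, defined as the 1000 bp upstream of the gene start. Of 42 gene-library pairs, 6 were open. The KLHL9 promoter was open in Control replicate 2, both TPA libraries and ZnCl2 replicate 1, and the DMRTA1 promoter in Control replicate 2 and ZnCl2 replicate 1. The promoters of CDKN2A, CDKN2B, CDKN2B-AS1, MTAP and IFNE were open in 0 of 6 libraries. For comparison, the share of all coding promoters with a call was 47.3% and 58.4% in the Control libraries, 51.1% and 53.5% with TPA, and 56.7% and 44.1% with ZnCl2, and 38.9% had none in any library. None of the 6 calls was in the upper 50% of its library's list by score.

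CpG-rich promoters are open in most cell types, and the segment held 5 coding genes of this class. A promoter was called CpG-rich when the 1000 bp centered on the gene start had at least 55% GC and an observed to expected CpG ratio of at least 0.6. The 5 genes were HACD4, an enzyme of fatty acid elongation, MTAP, CDKN2A, CDKN2B and DMRTA1. Their GC content was between 60.1% and 62.0%. DMRTA1 was the only member of this class with a call, and the other 4 were open in none of the 6 libraries. On the rest of 9p, 13 of 102 such promoters (12.7%) had no call in any library, and over the genome 16.4% did. All 6 libraries called 72 of the 102 (70.6%) and 61.7% over the genome, against 0 of 5 in the segment. By library, 71.6% and 81.8% of CpG-rich coding promoters of the genome were open in Control, 74.8% and 76.7% with TPA, and 81.3% and 65.5% with ZnCl2. KLHL9, with a ratio of 0.776 and 53.3% GC, missed the GC threshold.

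CDKN2A and CDKN2B also lay far from any call. The CDKN2A gene start at position 21995301 was 158 kb from the nearest call in both Control libraries and in ZnCl2 replicate 1, 140 kb in both TPA libraries and 1309 kb in ZnCl2 replicate 2. The CDKN2B start was between 154 and 172 kb away in those 5 libraries and 1323 kb in ZnCl2 replicate 2. Taking the nearest call of any library, the distance was 139.8 kb for CDKN2A, and 3.77% of all coding starts and 1.93% of CpG-rich ones were as far or farther. The start of CDKN2B-AS1 was 138.6 kb from a call and that of MTAP 29.0 kb. None of 13 annotated transcript starts of CDKN2A, 3 of CDKN2B and 17 of CDKN2B-AS1 had a call in its upstream 1000 bp. MTAP had 13, of which the inner starts at positions 21854724 and 21856118 had a call in TPA libraries. HACD4 was the most remote of the CpG-rich starts, at 274.7 kb.

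**Figure D1:**
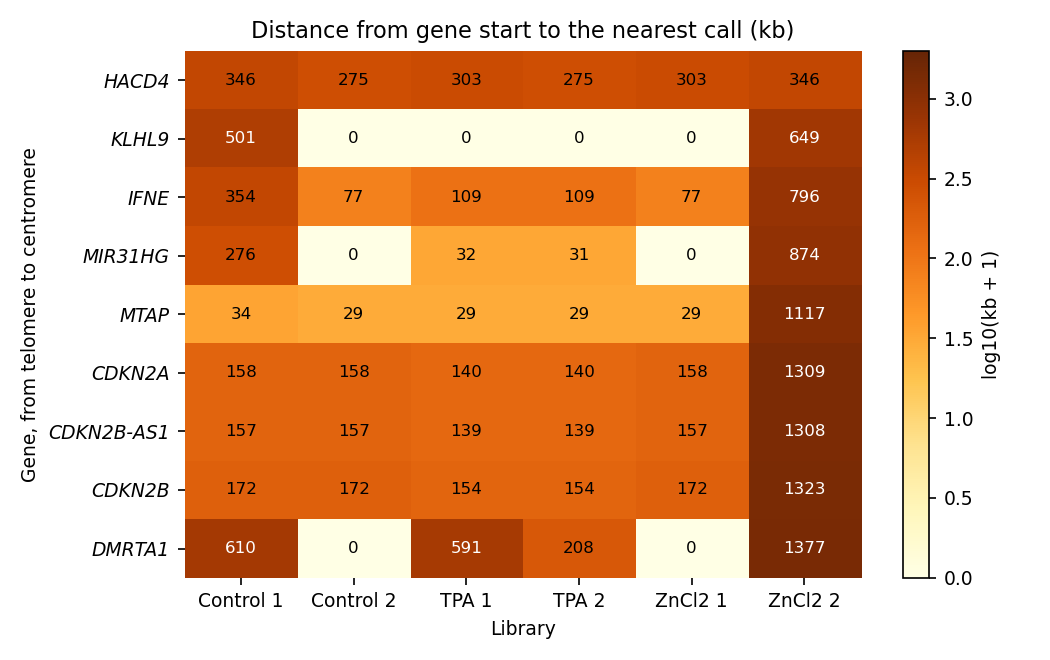
Distance in kb from each gene start (rows, in order along the chromosome) to the nearest open-region call in each library (columns), with the color on a log10(kb + 1) scale. A value of 0 means that the start lies inside a call, which occurs for KLHL9 in 4 libraries and for MIR31HG and DMRTA1 in 2, while CDKN2A lies at least 139.8 kb from a call in every library.

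The interferon genes between HACD4 and MTAP had no call either. IFNB1 and the IFNA genes are induced by viral sensing, whereas IFNE is expressed constitutively in some epithelia under hormonal control. The segment held 16 coding interferon genes, 13 of them IFNA genes and the others IFNB1, IFNW1 and IFNE, and 0 of the 16 promoters overlapped a call in any library. None was CpG-rich, with a GC content from 31.3% to 43.9% around the start, so they differ from CDKN2A, CDKN2B and MTAP in promoter class. Over the genome 38.9% of all coding promoters had no call in any library, against 16.4% of CpG-rich ones. A missing call is therefore more common outside the CpG-rich class, and nothing particular to the interferon genes is read from the count. Of 10 lncRNA genes that start in the segment, 1 had a promoter call in any library, against 28.4% of lncRNA promoters over the genome. This was MIR31HG, the host gene of the microRNA miR-31, in Control replicate 2 and ZnCl2 replicate 1.

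The 10 open regions of the segment were few and clustered on the telomeric side of CDKN2A. Control replicates 1 and 2 had 1 and 7 regions, the TPA libraries 6 and 8, and the ZnCl2 libraries 6 and 0. At the density of the rest of 9p, the same lists would have placed 12.6, 25.1, 19.4, 22.8, 20.0 and 10.3 regions there. Of the 10 merged regions 8 lay between KLHL9 and the middle of MTAP, 1 between CDKN2B and DMRTA1, and 1 at DMRTA1. None was called in all 6 libraries, compared with 33.8% of regions on the rest of 9p and 32.0% over the genome. TPA replicate 2 alone called 2 of the 10, and regions called in 1 library only were 16.7% of the genome's.

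**Figure D2:**
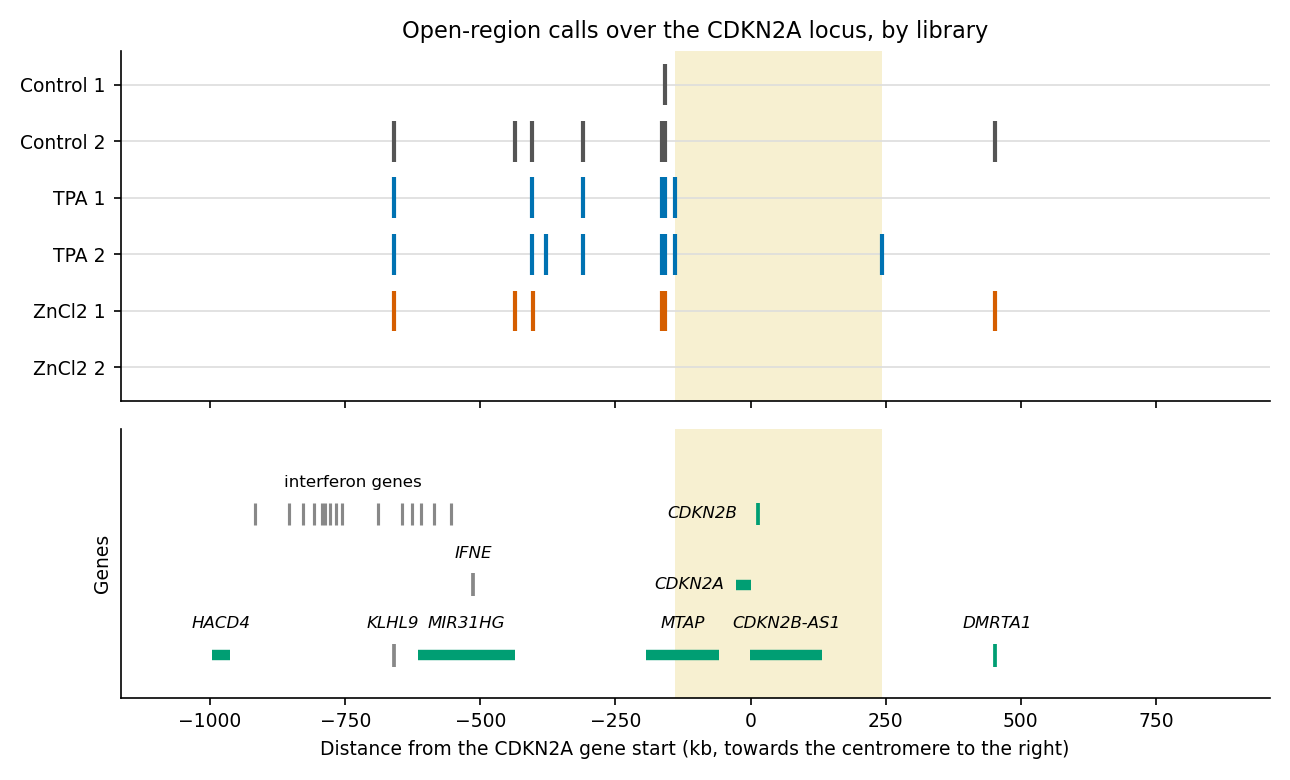
Open-region calls in each library (upper panel, 1 tick per call at its center, tick width not to scale) and genes (lower panel, green for a CpG-rich start and gray for others, ticks at the start for genes under 15 kb) against the distance in kb from the CDKN2A gene start. The shaded stretch of 382.2 kb has no call in any library and holds the starts of CDKN2A, CDKN2B and CDKN2B-AS1.

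Read from the telomere, the first region covered the KLHL9 start (chr9:21334471-21336070) in 4 libraries. The MIR31HG start (chr9:21558881-21560500) was called in 2. An intergenic region followed 109 kb from the IFNE start (chr9:21590841-21592510, 4 libraries), and another at chr9:21616081-21616670 was called in TPA replicate 2 alone. The intergenic region at chr9:21684861-21685730 was called in Control replicate 2 and both TPA libraries. It had the highest mean percentile of the segment, 49.3, from scores of 44, 53 and 59 at percentiles 34.3, 53.7 and 59.9 of the lists. Only its TPA calls stayed in the lists when every library was held to its 18887 best regions.

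MTAP carried 3 regions although its promoter carried none. The first intron region (chr9:21831611-21832960) was called in 4 libraries at scores of 30 to 32. The second, 33.1 kb inside the gene (chr9:21835711-21837320), was called in 5 libraries and was the only call of Control replicate 1. Its scores were 31 in Control replicate 1, 54 in Control replicate 2, 45 and 50 with TPA, and 52 with ZnCl2. The third (chr9:21854511-21855490) overlapped an MTAP exon and the inner start at 21854724, and was called in both TPA libraries and in no Control or ZnCl2 library. Its scores of 30 and 34 lay at the floor of the lists, where 30 is the lowest value. Over the genome 2.04% of regions were called in both TPA and neither Control library, a share that also counts regions with ZnCl2 calls. A pattern in 1 region among 10 is not read as an effect of TPA.

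The AP-1 motif TGANTCA, which reads the same on both strands, was searched in the central 300 bases of every region because AP-1 sites are common in open regions of epithelial cells. It occurred in 4 of the 10 regions and in 27.3% of 2060 regions on chromosome 9. The centers of the region with the highest mean percentile and of the MTAP intron region called in most libraries are given on the plus strand of hg38 with the motif in capitals, at chr9:21685146-21685445 and chr9:21836366-21836665. A match is a description of the letters and not a measured site.
Intergenic region: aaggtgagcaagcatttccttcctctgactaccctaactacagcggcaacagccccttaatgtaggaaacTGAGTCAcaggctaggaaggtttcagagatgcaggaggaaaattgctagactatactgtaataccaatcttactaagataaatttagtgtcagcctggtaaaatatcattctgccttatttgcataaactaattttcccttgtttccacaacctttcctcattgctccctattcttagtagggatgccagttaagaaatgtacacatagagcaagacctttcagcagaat
MTAP intron region: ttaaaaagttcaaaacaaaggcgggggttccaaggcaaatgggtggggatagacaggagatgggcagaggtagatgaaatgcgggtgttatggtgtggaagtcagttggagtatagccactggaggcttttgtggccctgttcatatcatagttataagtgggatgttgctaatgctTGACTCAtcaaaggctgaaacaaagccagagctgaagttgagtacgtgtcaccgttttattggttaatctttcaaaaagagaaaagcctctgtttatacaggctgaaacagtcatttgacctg

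Towards the centromere from the third MTAP region, calls were sparser still. From chr9:21855491, inside MTAP, to 22237690, 382.2 kb had no call in any library, and this stretch held the starts of CDKN2A, CDKN2B and CDKN2B-AS1. On its centromeric side it ended at a TPA replicate 2 call (chr9:22237691-22238590, score 31) that lay 208 kb from the DMRTA1 start. The call-free stretch around CDKN2A was 608.99 kb in Control replicate 2, 608.78 kb in ZnCl2 replicate 1 and 382.76 kb in TPA replicate 2. In the other libraries it ran past the segment, to 1989 kb in Control replicate 1, 1914 kb in TPA replicate 1 and 3138 kb in ZnCl2 replicate 2. The DMRTA1 start (chr9:22445921-22448130) was called in 2 libraries, at percentiles of 34.3 and 15.8.

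The CDKN2A stretch was not the longest in the segment. The longest without a call in any library lay past DMRTA1, with 507.6 kb inside the segment and 1238 kb when followed to the next call at chr9:23686191-23686610, an intergenic region called in Control replicate 2 alone. It held no coding start. The next was 504.8 kb long inside the segment and held HACD4 and 10 interferon genes. The CDKN2A stretch came after these in length and was the longest between KLHL9 and DMRTA1. On chromosomes 1 to 22 and X, 1001 other stretches were at least as long, and 777 of them (77.6%) held no CpG-rich coding start. Only 36 (3.60%) held 2 or more, as the CDKN2A stretch did. On 9p, 20 others were as long and 1 held 2 CpG-rich starts, those of SH3GL2 and ADAMTSL1.

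The density of open regions was lower in the segment than on the rest of 9p in 6 of 6 libraries. It was 0.470 and 3.29 regions per Mb in the Control libraries, 2.82 and 3.76 with TPA, and 2.82 and 0 with ZnCl2. On the rest of 9p it was 5.94 and 11.8, 9.12 and 10.7, and 9.40 and 4.82. The mean difference was -6.44 regions per Mb (SD 1.28, n = 6; two-sided exact permutation test exchanging the sign within each library, p = 0.03125, the smallest possible). Coding starts were not fewer in the segment, with 10.3 per Mb against 4.99, and CpG-rich ones were at 2.35 per Mb against 2.84. Of the 22 coding starts in the segment, however, 16 were clustered interferon genes, none of them CpG-rich.

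The difference was smaller against the immediate neighbors. Against flanks of the segment's own length on either side it was -1.76 regions per Mb (exact permutation p = 0.03125), lower in 6 of 6 libraries. The telomeric flank, with the CpG-rich starts of RPS6, HAUS6, MLLT3 and 5 other genes, had 3.76 to 10.3 regions per Mb. The centromeric flank, with no CpG-rich start, had 0.470 to 1.88, which was below the segment in 4 libraries and equal to it in 1. Among 1346 windows of the same length that tile the genome, between 6.69% (ZnCl2 replicate 2) and 15.9% (ZnCl2 replicate 1) had as few regions or fewer, so a sparse window of this size is not rare in these lists.

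**Figure D3:**
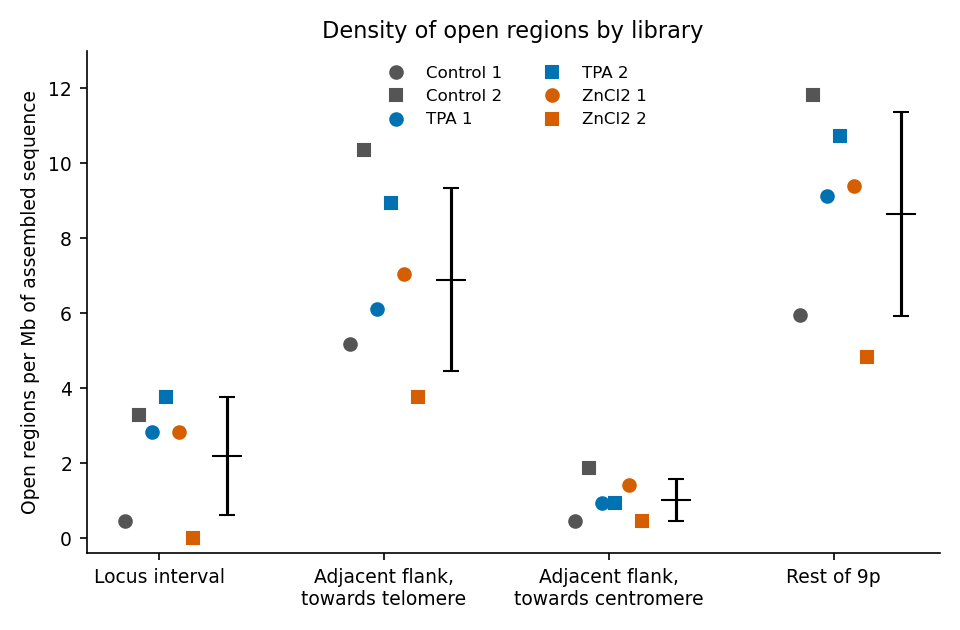
Open regions per Mb of assembled sequence in the segment, in each adjacent flank of the same length and on the rest of 9p, with 1 point per library and bars for the mean and SD of 6 libraries. Every library is lower in the segment than on the rest of 9p, and the centromeric flank is as sparse as the segment or sparser in 5 libraries.

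**Figure D4:**
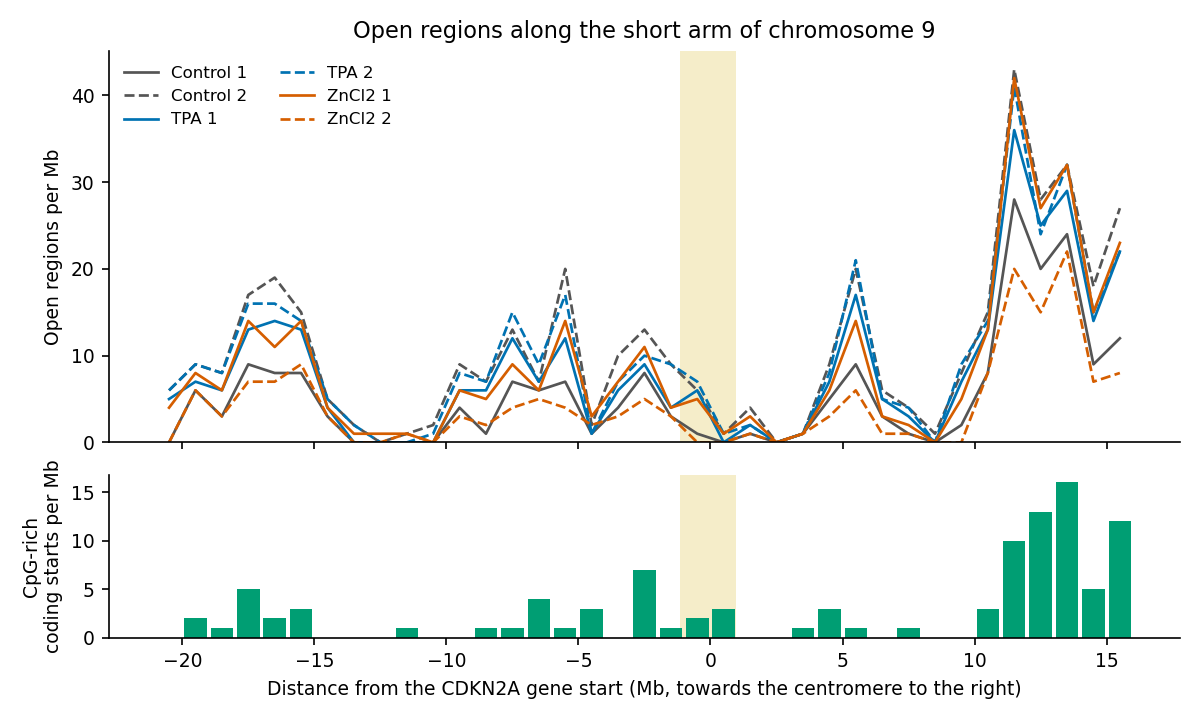
Open regions per Mb along 9p in each library (upper panel) and CpG-rich coding starts per Mb (lower panel) against the distance in Mb from the CDKN2A gene start, with the segment shaded. The bin that begins at the CDKN2A start has 0 or 1 regions and 3 CpG-rich starts, and the bin centered at -4.5 Mb, with 1 to 3 regions, holds 3 as well.

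Promoters separated the segment from its surroundings more widely than density did. The numbers of coding promoters with a call were 0 and 2 of 22 in the Control libraries, 1 and 1 with TPA, and 2 and 0 with ZnCl2. On the rest of 9p the share was between 56.4% and 68.7% of 179. The mean difference was -58.2 percentage points (SD 1.43, n = 6; exact permutation p = 0.03125, lower in 6 of 6 libraries). In the flanks 8 of 12 coding promoters were open in every library, and the difference from them was -62.1 points. With CpG-rich promoters alone, which leaves out the interferon genes, it was -73.7 points (exact permutation p = 0.03125), with 0 or 1 of 5 open against 73.5% to 87.3% of 102. The promoter window lies at the outermost annotated start, so a gene used from an inner start counts as closed, as FOCAD did at the telomeric edge, where an inner start was open in all 6 libraries. With any annotated transcript start the difference was -65.1 points.

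The calls that were present had low scores for their libraries. Scores in the segment ran from 30 to 59, while list medians were between 44 and 54. The median percentile of the segment's calls was 4.60 and 14.6 in the Control libraries, 24.8 and 20.3 with TPA, and 14.3 in ZnCl2 replicate 1, and between 43.9 and 50.4 on the rest of 9p. The mean difference over the 5 libraries with a call was -31.9 percentile points (SD 6.04; exact permutation p = 0.0625, the smallest possible with 5). Of 28 calls 3 were in the upper 50% of their lists and 2 remained at an equal number of regions. Both counts depend on how score ties at the cut were ordered. At an equal number the difference was -14.8 over both TPA libraries. At KLHL9 the percentiles were 14.6 in Control replicate 2, 39.6 and 27.9 with TPA and 9.89 in ZnCl2 replicate 1, whereas calls at coding promoters on the rest of 9p had medians of 60.5 to 78.4.

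**Figure D5:**
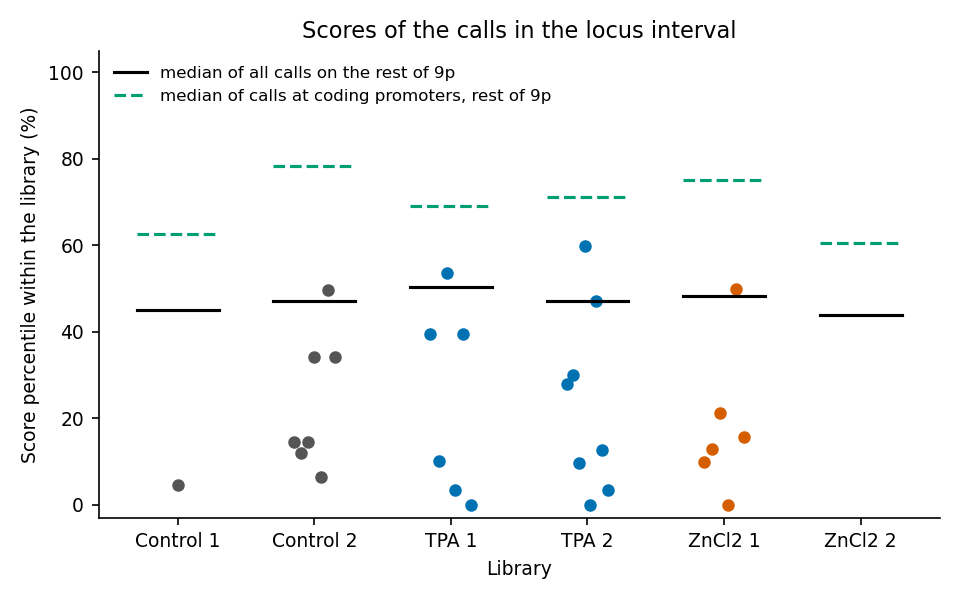
Score percentile of each call in the segment within its own library (points), with the median of all calls on the rest of 9p (black line) and of calls at coding promoters there (green dashed line). Only 4 of 28 points lie above the black line of their library, and none reaches the green line.

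With the full lists, Zn2+ chelation and added ZnCl2 gave no separation at the locus. The number of regions was 4 ± 4.24 in Control, 7 ± 1.41 with TPA and 3 ± 4.24 with ZnCl2 (mean ± SD, n = 2 each). The differences from Control were 3 for TPA and -1 for ZnCl2, both with p = 0.667 in a two-sided exact permutation test for which 0.333 is the smallest possible p. TPA and Control values overlapped, and without Control replicate 1 the TPA difference was 0. Without Control replicate 2 or ZnCl2 replicate 2 the ZnCl2 difference turned to 2. The longest call-free stretch per library was 1119 and 609 kb in Control, 1100 and 717 kb with TPA, and 609 and 2126 kb with ZnCl2, the last being the whole segment. Its differences from Control were 44.9 kb for TPA and 503.6 kb for ZnCl2 (exact permutation p = 1 for each). These values moved with list length: ZnCl2 replicate 2 and Control replicate 1, the shortest lists, had 0 and 1 regions. With every list held to an equal number of regions, the differences from Control were 1 region for TPA and 0 for ZnCl2, the latter resting on a score tie. Beyond such alternatives the part of list length was not tested. The 2 against 2 design cannot show whether either treatment changes accessibility here.

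The genes of the pathway that CDKN2A acts on lie outside the segment. Of 18 such genes, 14 of them CpG-rich, 8 had a call in all 6 libraries, beside 40.0% of all coding promoters and 61.7% of CpG-rich ones. Among the 8 were RB1, the target of the CDK4 and CDK6 kinases, MDM2, and CDKN2C and CDKN2D, the remaining INK4 inhibitors. CDK6 was open in 5 libraries, CDK4 in 2, and CCND2 and CDKN1B in none. By library 12 and 15 of the 18 were open in Control, 15 and 14 with TPA, and 14 and 10 with ZnCl2. Within the INK4 family the promoters of CDKN2C and CDKN2D were thus called in 6 of 6 libraries and those of CDKN2A and CDKN2B in 0. A list of 12 genes covered methionine salvage and polyamine synthesis, the pathway that MTAP serves, and besides that pathway PRMT5, WDR77 and RIOK1. Of the 12, 10 were open in all 6 libraries and 0 in none. The 10 included PRMT5, which is inhibited by the methylthioadenosine that MTAP removes, and MAT2A, which makes S-adenosylmethionine. All 12 were CpG-rich, a class in which 61.7% were open in all 6 libraries and 16.4% in none over the genome, so nothing particular to this list is read from the count.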

How the data were processed

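The deposited lists hold 1 set of HMMRATAC open regions for each of 6 ATAC-seq libraries of MCF10A. The authors removed adapters (BBDuk), aligned the paired reads to hg38 (HISAT2, version 2.1.0 in the submitters' processing notes) and called regions per library without pooling. Column 5 is a whole-number score that the authors' caller assigned, at least 30 in every list, of a kind not given in the sources used here, so it was used only to rank regions within a list. Later steps of the authors (merging, removal of blacklisted regions, read counting) were not used here. Replicates are described as biological in the methods and as technical in the results of the study.

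Between 72 and 203 regions per list on contigs other than chromosomes 1 to 22, X and Y were dropped. Overlapping or touching regions of the 6 lists were merged. A promoter (1000 bp upstream of the start, GENCODE release 44) was open with at least 1 bp of overlap. Each library gave 1 value per measure. Treatments and Control were compared with an exact permutation of 2 against 2 libraries (two-sided), and the segment with 9p by exact exchange of signs over libraries. No p-value was adjusted for the number of comparisons, so each holds for its own comparison only. Windows with over 10% unassembled bases were left out. Promoter sequences came from RefSeq (GRCh38.p14), for which all 7 genes matched.

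The genes and lists were chosen with earlier results of these data known. The genes named were the 7 chosen ones, the other coding genes of the segment, the regions bounding call-free stretches or lying inside another library's longest stretch, the 3 with the highest mean percentile, and examples from the fixed lists. For 1 gene of the pathway list, results are not reported here. MIR31HG, FOCAD, SH3GL2, ADAMTSL1 and the flank genes were named after their values were seen. Alternatives were an equal number of regions, the upper 50% by score, assignment by center, no added 500 kb, flanks of equal length, other promoter windows, leaving out each library and the replicate number as a block. Where regions tied in score at a cut, they were ordered by chromosome name and position. Added after the data were seen were stretches without the added 500 kb or followed past the edges, the 4 longest lists, and CpG-rich promoters only. The procedures were tested on simulated data with planted stretches. Computation used Python 3.11.15, NumPy 2.4.6, pandas 2.3.3, SciPy 1.17.1 and Matplotlib 3.10.9.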

Additional observations from a re-analysis of the deposited data

How the results depend on the processing

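The lower density and the lower promoter share of the segment kept their direction under every alternative run. Their p-values rose above 0.05 only where libraries were left out, since 5 libraries cannot give less than 0.0625 and 4 not less than 0.125. Leaving out each library gave densities of -6.77 to -6.03 per Mb and shares of -58.6 to -57.9 points, all with an exact permutation p of 0.0625, and the 4 longest lists gave -7.09 per Mb and -58.8 points (p = 0.125). The score difference ran from -33.4 to -29.7 without 1 library.

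Differences between conditions were not stable. At an equal number of regions the ZnCl2 differences became 0 regions and 0 kb and the TPA stretch difference -855.9 kb. The ZnCl2 values there depend on a tie: the MTAP intron call of ZnCl2 replicate 1 (score 52, rank 18543) was tied across the cut and dropped. In the upper 50% the differences were 0.500 regions and -503.7 kb for ZnCl2 and -855.9 kb for the TPA stretch. These values also depend on ties: the MTAP intron call of Control replicate 2 (score 54, rank 21890) was tied across this cut and dropped. That of ZnCl2 replicate 1 was tied and kept, so no direction is read from them. The TPA difference in number of regions was 1 at each of these settings (exact permutation p = 0.333, the smallest possible), in the upper 50% with that Control call dropped. It was not negative under any alternative. Without the added 500 kb the TPA stretch difference was -122.3 kb. Without 1 library the ranges were 0 to 6 regions and -210.0 to 299.7 kb for TPA, and -4 to 2 regions and -255.0 to 1262 kb for ZnCl2. The TPA stretch difference turned negative without Control replicate 2 or TPA replicate 1, and the ZnCl2 one without ZnCl2 replicate 2. The cause was not tested.

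With the replicate number as a block the differences were the same, 3 and -1 regions and 44.9 and 503.6 kb, with exact permutation p of 0.5 to 1. The labels give only the number, and whether libraries with the same number were prepared together is not stated. Replicate 2 had the longer list in Control and TPA and the shorter in ZnCl2. No promoter of the 7 genes stayed open at an equal number of regions or in the upper 50% (0 in each), and leaving out 1 library left 4 to 6. The longest stretch without a call was 1270 kb at an equal number of regions, which removes calls by construction, 1238 kb past the edges, and 507.6 to 590.4 kb without 1 library. Unknown depth limits every missing call.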
